A study of Mus musculus with 17 samples.

Results

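Expression of the proteasome genes was examined in islets of mice carrying a *Pax4* variant or lacking *Pax4* in β cells. The genes were chosen by name, as protein-coding genes of the mouse annotation whose symbol begins with Psm, a letter from a to g and a number. The rule took 50 of the 78239 gene identifiers in the table of the *Pax4* R192H line. Of these, *Psmc3ip*, which encodes a meiotic recombination protein, and *Psme2b*, named as a relative of *Psme2*, share the naming pattern but are not established proteasome parts, and they were kept apart. The other 48 comprised 43 constitutive genes and 5 immunoproteasome genes. *Psma8* and *Psmb11*, core subunits of the testis and the thymus, did not pass the filter on low counts, so 41 constitutive and 5 immunoproteasome genes were tested. *Psmb11* had 0 counts in all 17 mice, and *Psma8* had at most 11 counts in any mouse.

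The proteasome is the protease that degrades proteins tagged with ubiquitin. Its barrel, the 20S core, stacks outer rings of α subunits (*Psma* genes) on inner rings of β subunits (*Psmb* genes), of which *Psmb5*, *Psmb6* and *Psmb7* encode the catalytic ones. The 19S regulatory particle recognizes and unfolds substrates through a ring of ATPases (*Psmc* genes) and a base and lid of further subunits (*Psmd* genes). In immune cells and under interferon, *Psmb8*, *Psmb9* and *Psmb10* replace *Psmb5*, *Psmb6* and *Psmb7* to form the immunoproteasome, and *Psme1* and *Psme2* encode the PA28 activator that caps it. In β cells, which make large amounts of insulin precursor, the proteasome also clears misfolded proteins exported from the endoplasmic reticulum.

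Bulk RNA-seq was performed on islets of 17 male mice. In the *Pax4* R192H line, on a C57BL6/N background, 3 wildtype and 3 homozygous knock-in mice (labelled HH) were fed standard chow diet (SCD) and studied at 12 weeks, and 3 of each genotype were fed high-fat diet (HFD) for 4 weeks and studied at 16 weeks, so diet and age changed together. The knock-in allele carries the mouse equivalent of human R192H in the endogenous gene of every cell. In the other line, 2 controls and 3 inducible β cell-specific knockouts (*Pax4* βiKO, labelled BiKO) were fed HFD for 8 weeks and studied at 20 weeks. All 5 carried homozygous floxed *Pax4* and received tamoxifen, but only the knockouts carried *Pdx1-CreERT2*, so Cre and the loss of *Pax4* cannot be told apart. No mouse had a count for *Pax4*, so the deletion cannot be seen in these counts. *Esr1*, whose sequence the Cre fusion carries in part, was at 265 to 298 CPM in the 3 βiKO mice and below 1 CPM in both controls. Totals were between 24268157 and 42679645 counts per mouse. The 2 identifiers with the most counts in the R192H line, which the annotation used does not name, held 36.2 to 53.3% of the counts there and 5.40 to 6.49% in the βiKO line. Levels are given as CPM, counts scaled to library size with TMM factors within each table, and were not compared between the lines.

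In wildtype islets on SCD, the 20S core genes were the most abundant group per transcript length. Their group means ran from 18.7 to 65.9 CPM per kilobase of principal transcript, with a median of 34.3, against a median of 21.9 for the 17 genes of the 19S particle and 5.59 for the 10 assembly chaperones, other activators and inhibitor. *Psmb6*, the caspase-like catalytic subunit, was highest at 65.9 ± 12.7 CPM per kilobase (SD, n = 3). *Psmb4*, a non-catalytic β subunit, followed at 61.9 ± 13.1, and the 2 genes did not differ beyond their spread. The α subunit *Psma7* came next at 49.9 ± 5.03, and the lid subunit *Psmd6* was at 42.9 ± 3.48. These 4 genes were also the highest in *Pax4* R192H islets on HFD, where *Psmb6* reached 103 ± 2.69, and in both groups of the βiKO line. Among the immunoproteasome genes, *Psme2* was at 29.5 ± 3.45, within the range of the core genes, whereas *Psmb8* was at 7.16 ± 1.10 and *Psmb9* at 4.39 ± 0.801 CPM per kilobase.

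**Figure D1:**
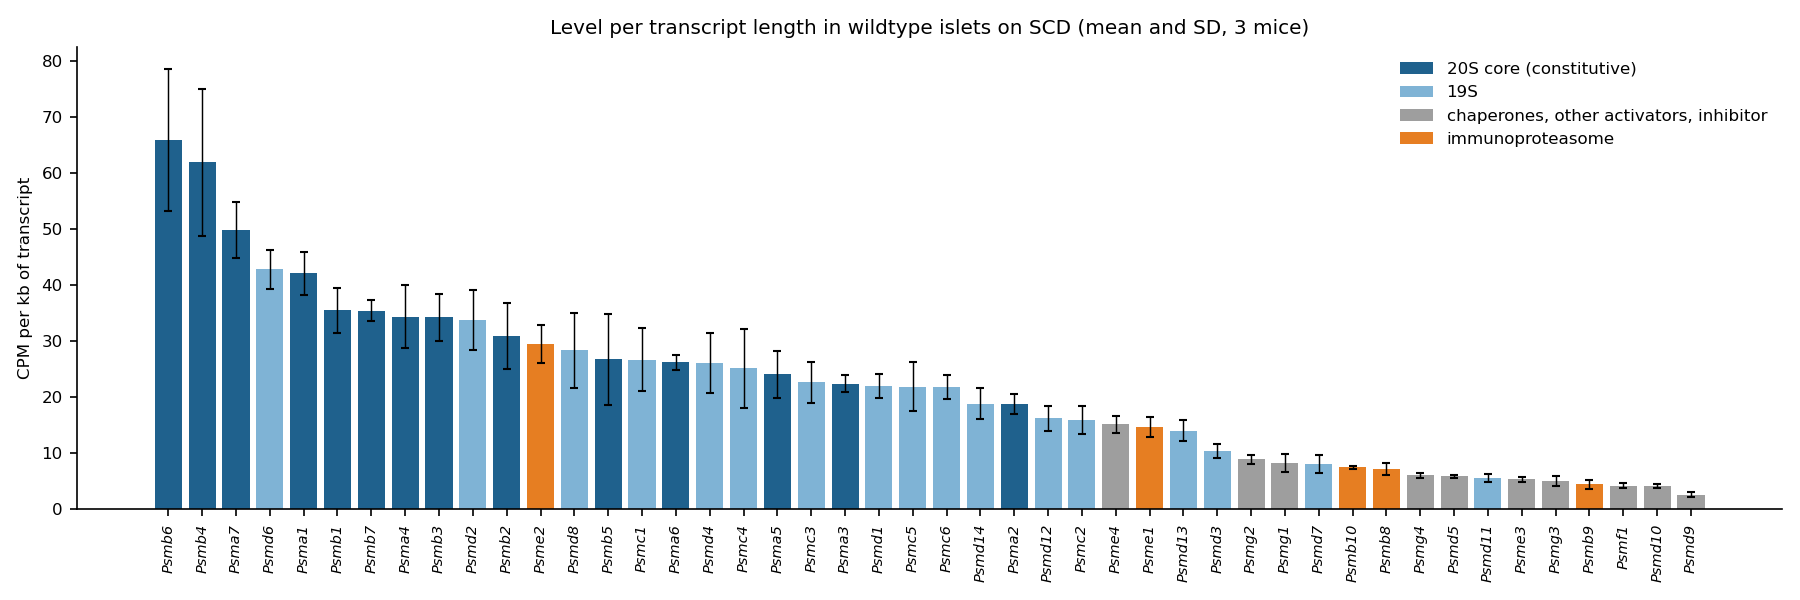
Mean level of the 46 tested proteasome genes in islets of 3 wildtype mice on SCD, in CPM per kilobase of principal transcript, in order of level, with SD as error bars and colours for the subunit groups. The 20S core genes lie mostly to the left, led by *Psmb6* at 65.9, and 4 of the 5 immunoproteasome genes lie in the right-hand part.

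The bases before the start of the constitutive and immune forms of 2 catalytic subunits are shown because the ratio within these pairs separated the genotypes on HFD without overlap, as described further on. The sequences are from RefSeq (GRCm38.p6) and run from 120 bases before the RefSeq gene start to the last base before it, on the strand of the gene. The gene starts of GENCODE, used for distances between genes, differ from these, and the stretches of *Psmb5*, *Psmb8* and *Psmb9* lie wholly or partly within the GENCODE genes. Capitals mark matches, on either strand, to the core of the antioxidant response element (TGACNNNGC), the core of the interferon-stimulated element (GAAANNGAA) or the CCAAT box, none of which is in the stretch shown for *Psmb8*.
Psmb5 (chr14:54617996-54618115, minus strand): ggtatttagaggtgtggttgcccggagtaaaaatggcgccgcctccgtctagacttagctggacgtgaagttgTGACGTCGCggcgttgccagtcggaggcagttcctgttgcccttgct
Psmb6 (chr11:70525237-70525356, plus strand): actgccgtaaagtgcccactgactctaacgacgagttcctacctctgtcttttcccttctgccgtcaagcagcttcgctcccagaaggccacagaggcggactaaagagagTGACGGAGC
Psmb8 (chr17:34198075-34198194, plus strand): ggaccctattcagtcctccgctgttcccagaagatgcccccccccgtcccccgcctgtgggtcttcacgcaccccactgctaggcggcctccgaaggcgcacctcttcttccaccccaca
Psmb9 (chr17:34187331-34187450, minus strand): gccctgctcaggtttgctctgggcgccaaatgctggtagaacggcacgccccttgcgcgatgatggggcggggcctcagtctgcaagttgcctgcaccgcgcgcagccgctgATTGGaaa

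*Psmb5* held the antioxidant response core at bases -47 to -39 from its start and *Psmb6* at -9 to -1, and *Psmb9* held CCAAT, on the opposite strand, at -8 to -4. A promoter of 250 bases before to 50 after the start was available for 40 of the 48 proteasome genes. The antioxidant response core was in 4 of 26 promoters of constitutive complex subunits (15.4%) and in 12.5% of all 27025 promoters. The interferon-stimulated core was in 1 of 5 immunoproteasome promoters, that of *Psme1*, and in 8.57% of all. CCAAT was in 11 of 26 promoters of constitutive complex subunits (42.3%) and in 37.9% of all. The set of 26 includes the thymus subunit *Psmb11*, which is among the 11 with CCAAT. With so few promoters these shares are a description only, and a match describes letters in this window, not binding. *Psmb9* and *Psmb8* lie 9956 bases apart on chromosome 17 with *Tap1*, the peptide transporter gene, between them, and *Psme1* and *Psme2* lie 5911 bases apart on chromosome 14.

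To ask how the diet period changed the proteasome in the presence of the variant, HFD was compared with SCD in *Pax4* R192H islets. In this comparison 13 of 46 proteasome genes were called, all higher on HFD, which required an adjusted p below 0.05 and a log2 fold change beyond 0.5 in either direction (edgeR's quasi-likelihood test, Benjamini-Hochberg adjustment over all 19137 genes tested). Of all genes tested, 15.7% were called in either direction and 9.75% were called higher, against 28.3% of the members. Without the fold threshold 15 members passed, *Psmb7* and *Psmd2* in addition, against 17.4% of all genes. The called members were *Psma5*, *Psma7*, *Psmb1*, *Psmb3*, *Psmb4*, *Psmb5* and *Psmb6* of the 20S core, *Psmc1*, *Psmc3*, *Psmc4*, *Psmd6* and *Psmd8* of the 19S particle, and *Psmb10* of the immunoproteasome.

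Within the 20S core 7 of 14 genes rose. *Psma7*, an α subunit, was at 44.6, 40.3 and 37.1 CPM in the 3 *Pax4* R192H mice on SCD and at 64.7, 71.1 and 61.5 CPM on HFD, a 1.62-fold increase (log2 0.69 ± 0.12 SE, adjusted p = 0.00277 by edgeR). *Psmb6* was at 50.8, 49.8 and 48.4 CPM on SCD and at 80.5, 84.6 and 81.5 CPM on HFD, 1.65-fold higher (adjusted p = 0.00523 by edgeR). In both genes every *Pax4* R192H mouse on HFD was above every SCD mouse of either genotype. The wildtype mice on SCD were spread more widely in *Psmb6*, from 45.0 to 64.1 CPM.

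*Psmb5*, the chymotrypsin-like catalytic subunit, was at 26.9, 25.5 and 20.8 CPM on SCD and at 38.9, 43.1 and 41.2 CPM on HFD, a 1.68-fold increase. *Psmb4* was at 71.1, 63.1 and 62.8 CPM on SCD and at 94.8, 124.1 and 103.1 CPM on HFD, 1.63-fold higher. *Psmb3*, another non-catalytic β subunit, was at 26.2, 22.1 and 27.0 CPM on SCD and at 35.1, 42.0 and 33.6 CPM on HFD, 1.47-fold higher. The groups did not overlap in any of these 3 genes, and their adjusted p-values were 0.0225, 0.0105 and 0.0183 (edgeR). The call of *Psmb5* was lost when SCD mouse 2 or 3 or HFD mouse 2 or 3 was left out (adjusted p of 0.0504 to 0.0881, edgeR). That of *Psmb4* was lost without HFD mouse 2 (0.0571), and that of *Psmb3* without SCD mouse 2 (0.062) or HFD mouse 2 (0.0914).

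*Psma5*, an α subunit, was at 31.6, 24.95 and 30.5 CPM on SCD and at 42.97, 46.2 and 46.1 CPM on HFD, 1.56-fold higher (adjusted p = 0.0101, edgeR). *Psmb1* was called at 1.45-fold, from 59.7 ± 5.97 to 86.3 ± 11.1 CPM (SD, n = 3 each, adjusted p = 0.0252 by edgeR), and its call was lost under 4 of 9 other settings and when SCD mouse 2, HFD mouse 2 or HFD mouse 3 was left out. The third catalytic gene, *Psmb7*, was at 41.6, 38.5 and 49.2 CPM on SCD and at 56.1, 63.5 and 56.8 CPM on HFD. Its log2 change of 0.45 ± 0.13 passed the adjusted p (0.0336, edgeR) but not the fold threshold. All 7 constitutive β genes had a positive estimate and no overlap between the groups, whereas the α subunits *Psma1* and *Psma3* had estimates of -0.085 and -0.043 on the log2 scale.

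Of the 17 genes of the 19S particle 5 rose. *Psmc4*, one of the unfolding ATPases, had the largest estimate of all members: it was at 35.2, 34.2 and 29.3 CPM on SCD and at 56.8, 59.6 and 55.2 CPM on HFD, 1.74-fold higher (log2 0.80 ± 0.17 SE, adjusted p = 0.00745 by edgeR). The ATPase *Psmc3* was at 37.7, 34.3 and 38.3 CPM on SCD and at 57.0, 56.0 and 59.4 CPM on HFD, 1.56-fold higher (adjusted p = 0.00776, edgeR). The ATPase *Psmc6* had an estimate of -0.0010 on the log2 scale. In the lid, *Psmd8* was at 46.5, 43.5 and 37.0 CPM on SCD and at 69.3, 76.2 and 70.2 CPM on HFD, 1.70-fold higher (adjusted p = 0.00842, edgeR).

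*Psmd6*, another lid subunit, was at 61.5, 56.3 and 61.9 CPM on SCD and at 80.5, 88.5 and 87.4 CPM on HFD, 1.43-fold higher (adjusted p = 0.0179, edgeR). Its call was lost under 3 of 9 other settings and when SCD mouse 2, HFD mouse 2 or HFD mouse 3 was left out (adjusted p of 0.06 to 0.0689, edgeR). *Psmc1* was called at 1.42-fold, a log2 change of 0.50 at the fold threshold, and its call was lost under 8 of 9 other settings and when any of 5 of the 6 mice was left out (adjusted p of 0.0633 to 0.12 by edgeR). None of the 10 chaperones, other activators and inhibitor was called. *Psme4*, which encodes the activator PA200, and the inhibitor gene *Psmf1* had estimates of -0.088 and -0.0078. Over the 41 constitutive genes the median log2 fold change was 0.37, with 36 above 0, against -0.058 over all genes tested, and 26 of 41 were higher without overlap, against 21.3% of all genes. Of the 2 genes that only share the naming pattern, *Psmc3ip* was called higher at 0.91 ± 0.33 CPM on SCD and 2.34 ± 0.61 CPM on HFD (SD, n = 3 each).

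**Figure D2:**
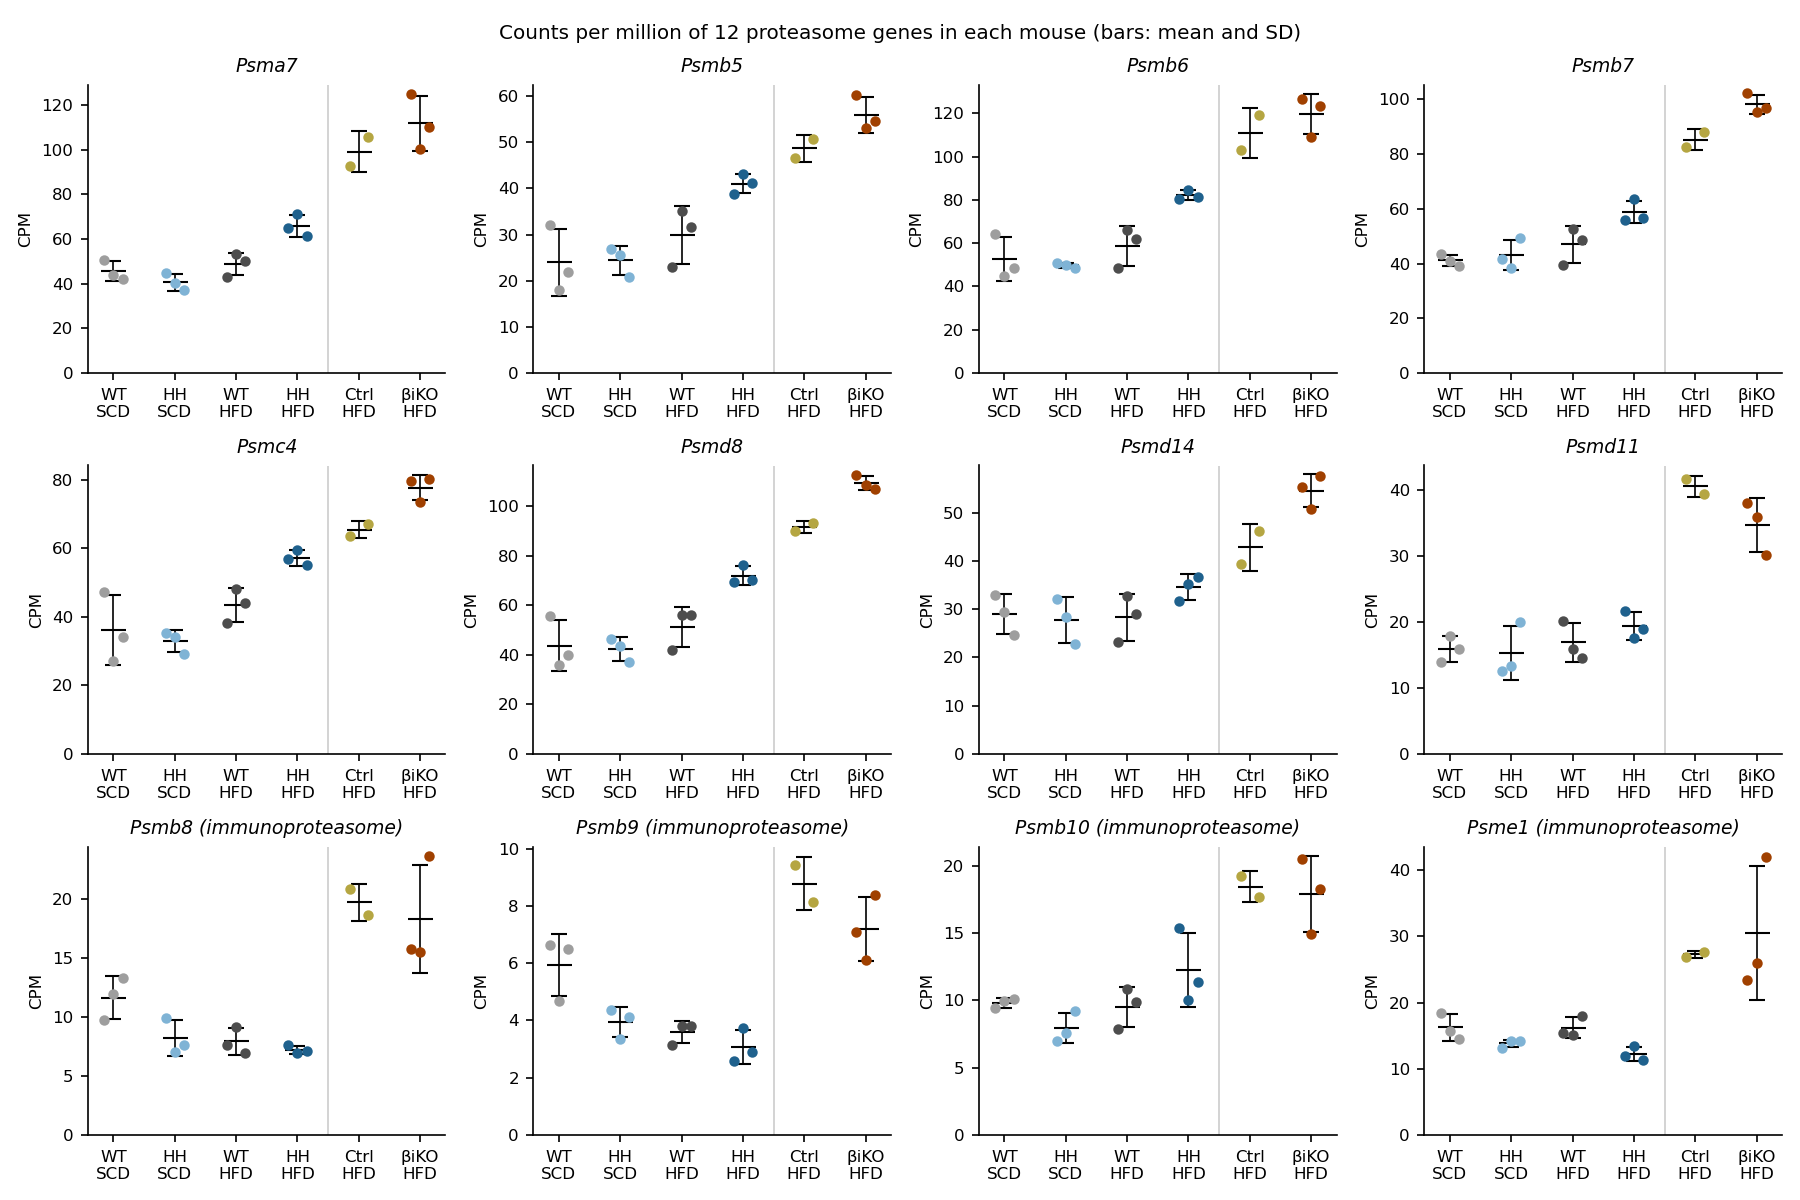
Level of 12 proteasome genes in each of the 17 mice, in CPM, with the group mean and SD as bars and a grey line between the 2 mouse lines. *Psmb6* in *Pax4* R192H mice on HFD sits between 80.5 and 84.6 CPM, above the other 9 mice of that line, whereas *Psmb8* has its highest mean of that line, 11.65 CPM, in wildtype mice on SCD.

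Several measured features moved with this comparison. Acinar markers, genes of the digestive enzyme-secreting cells that surround islets, were summed at 15410 to 21850 CPM in *Pax4* R192H mice on SCD and at 43310 to 114000 CPM on HFD, 24 of the 25 markers were called higher, and none was at 0 in any group. Islet endocrine markers were summed at 60840 to 62330 CPM on SCD and 108400 to 121700 CPM on HFD, with *Ins1*, *Ins2* and *Iapp* called higher, and duct markers at 78.1 to 100.7 CPM and 125 to 133 CPM, with *Krt7* called higher. Stromal markers were summed at 59.65 to 129.6 CPM on SCD and 36 to 56.4 CPM on HFD, all 6 with estimates below 0 and none called. Of 6 endothelial markers, *Plvap* was called higher. With the mean level of the acinar markers as a covariate, 0 members and 20 of all genes were called and the constitutive median was 0.56. Leaving out 1 mouse left between 7 and 15 members called, 7 without *Pax4* R192H SCD mouse 2 or HFD mouse 2 and 8 without HFD mouse 3. *Psma5*, *Psma7*, *Psmb6*, *Psmc3*, *Psmc4* and *Psmd8* were called with any 1 mouse left out. In bulk islets, a change in the number of cells of one type and a change of RNA per cell cannot be told apart.

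Transcript length also went with the estimates. Among all coding genes tested, those with a principal transcript below 1000 bases had a median log2 fold change of 0.56 in this comparison and those of 3000 bases or more had -0.17. The constitutive proteasome genes under 1000 bases had a median of 0.56 (7 genes), level with their length class. Those of 1000 to under 1500 bases had 0.41 against 0.36 for all coding genes of that length (13 genes), those of 1500 to under 3000 bases had 0.35 against 0.14 (17 genes), and those of 3000 bases or more had 0.017 against -0.17 (4 genes). Ribosomal protein genes, which are also short, had a median of 0.78 and 72 of 80 were called higher. The part of these cell types or of transcript length in the rise of the members was not tested.

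**Figure D3:**
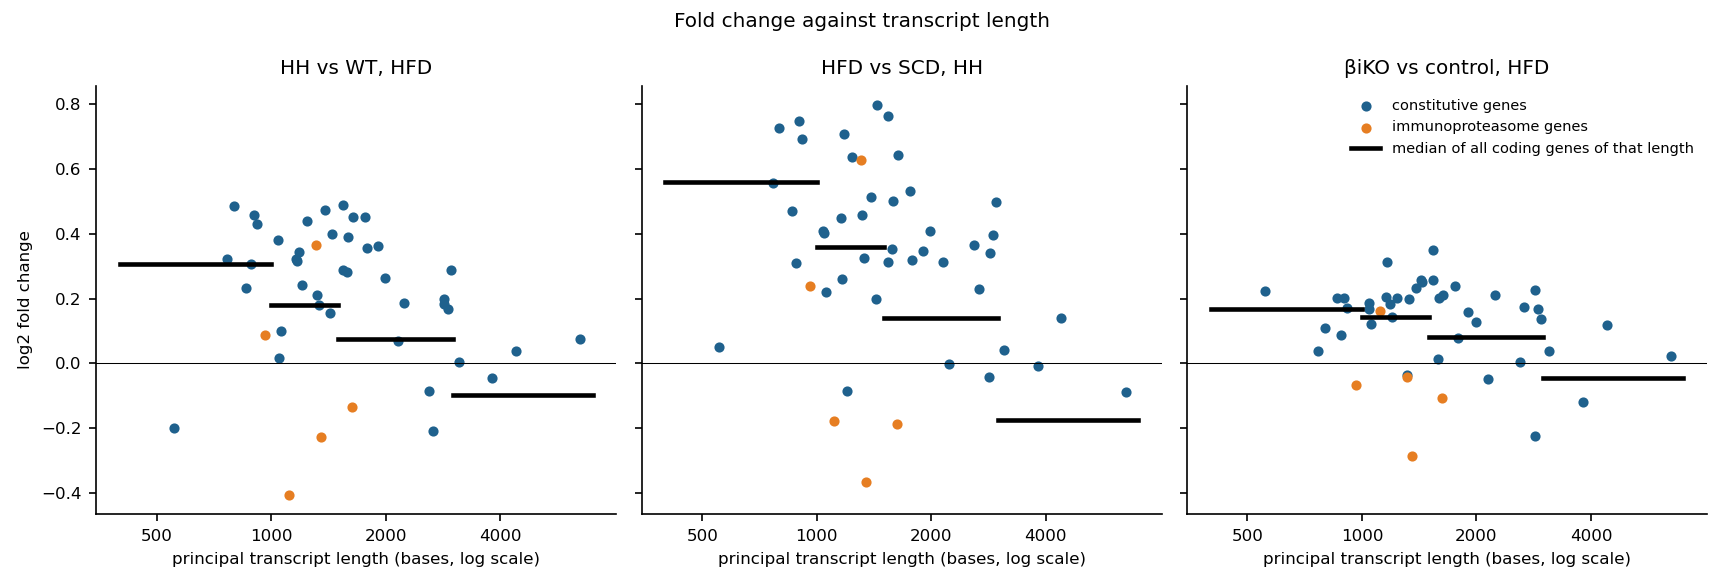
Fitted log2 fold change of each tested proteasome gene against the length of its principal transcript on a log axis, for 3 comparisons, with black lines at the median of all coding genes of each length class. In *Pax4* R192H islets on HFD against SCD the black line falls from 0.56 to -0.17 across the classes, and the immunoproteasome genes other than *Psmb10* lie below it.

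In wildtype islets the same diet period gave smaller estimates. None of the 46 members was called in HFD against SCD, where 0.371% of all genes were (edgeR). At an unadjusted p below 0.05, 1 member was higher and 3 were lower, against 1313 higher and 1602 lower of 19137 genes, and DESeq2 called 0. These 4 members became 9 without SCD mouse 1, 7 without HFD mouse 1 and 6 without HFD mouse 2. The constitutive median was 0.11, with 31 of 41 above 0, and ran from 0.021 without wildtype SCD mouse 2 and 0.051 without HFD mouse 2 to 0.19 without HFD mouse 1 and 0.20 without SCD mouse 1. The 7 constitutive members below 1000 bases had a median of 0.16 against 0.22 for all coding genes of that length, and the 13 of 1000 to under 1500 bases had 0.137 against 0.144. The chaperone gene *Psmd9* had the largest estimate (log2 0.51 ± 0.17 SE, adjusted p = 0.171 by edgeR), and *Psma1* the smallest of the constitutive genes at -0.38 (adjusted p = 0.209). Stromal markers were summed at 48.18 to 256.6 CPM on SCD and 29.75 to 43.7 CPM on HFD, all 6 with estimates below 0, 5 of them at an unadjusted p below 0.05 and none called. Islet endocrine markers were summed at 52850 to 66930 CPM on SCD and 74820 to 102200 CPM on HFD, and all 10 tested immune markers were below 0 (median -1.05), 2 of them called. The part of these cell types in the estimates was not tested.

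Whether the diet period acted differently in the 2 genotypes was tested with an interaction term. None of 46 members was called, against 0.131% of all genes (edgeR), and 12 had an unadjusted p below 0.05, all positive, against 1309 positive and 838 negative of 19137 genes. The 12 became 4 without wildtype SCD mouse 1 or HFD mouse 1, and 5 without *Pax4* R192H SCD mouse 2, HFD mouse 2 or HFD mouse 3. DESeq2 called 0 as well. The median over the constitutive genes was 0.28, with 38 of 41 above 0 and all 31 tested complex subunits among them. All 25 acinar markers (median 1.72, 24 at an unadjusted p below 0.05) and all 10 tested immune markers (median 0.72, 5 at that p) were also positive. Stromal markers went from a mean of 3.43 log2 CPM on SCD to 1.69 on HFD in wildtype and from 3.16 to 2.02 in *Pax4* R192H islets. Ribosomal protein genes went from 6.98 to 7.19 and from 6.89 to 7.68. Coding genes below 1000 bases had a median of 0.387 and the 7 members of that length 0.388, and the part of these features was not tested. A difference between the genotypes in how the proteasome genes changed over the diet period was therefore not established by this test.

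To ask whether the variant alone altered these genes, *Pax4* R192H islets were compared with wildtype islets on each diet. On SCD none of 46 members was called (edgeR), as was 0% of all genes, and DESeq2 called 0 members and 23 of all genes. The constitutive median was -0.061, with 13 of 41 above 0, and none of the 41 had an unadjusted p below 0.05. Without wildtype SCD mouse 1 the median was 0.050, with 27 above 0, and leaving out each mouse gave medians from -0.10 to 0.050, so its sign rested on 1 mouse. All 5 immunoproteasome genes had negative estimates, and *Psmb8* and *Psmb9* had unadjusted p below 0.05 (log2 -0.50 and -0.59, adjusted p of 1 for both by edgeR). All 10 tested immune markers were also below 0 (median -0.87, 7 at an unadjusted p below 0.05 and none called), as were all 10 genes of class I antigen processing (median -0.30), and the part of immune cells was not tested.

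On HFD, none of 46 members was called in *Pax4* R192H against wildtype islets, where 2.28% of all genes were (edgeR), and DESeq2 called 0. The 437 genes behind this share became 498 when wildtype mouse 2 was left out and 93 to 157 when any other 1 of the 6 mice was. The estimates lay to one side: 37 of 41 constitutive genes were above 0, including all 31 tested subunits of the 20S core and 19S particle, with a median of 0.28 against -0.014 over all genes. At an unadjusted p below 0.05, 15 constitutive genes were higher and none lower, against 1706 higher and 1335 lower of the 19137 genes tested. With *Psme1* this made 16 members, and 8 without wildtype HFD mouse 1. In 16 of 41 the 3 *Pax4* R192H mice all lay above the 3 wildtype mice, against 13% of all genes. The median was 0.33 for the 14 core genes, 0.29 for the 17 genes of the 19S particle and 0.028 for the 10 chaperones, other activators and inhibitor.

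*Psmd8* had the largest estimate on HFD: it was at 41.8, 55.9 and 55.9 CPM in wildtype and at 69.3, 76.2 and 70.2 CPM in *Pax4* R192H mice, 1.40-fold higher (log2 0.49 ± 0.17 SE, adjusted p = 0.154 by edgeR). *Psmd6* had the lowest adjusted p of the members, 0.0791, at 49.5, 69.3 and 66.0 CPM in wildtype and 80.5, 88.5 and 87.4 CPM in *Pax4* R192H mice. *Psmb6* was at 48.3, 66.0 and 62.0 CPM in wildtype mice, below the 80.5 to 84.6 CPM of the *Pax4* R192H mice (adjusted p = 0.104, edgeR). In each of these genes wildtype mouse 1 was the lowest of its group, and the groups did not overlap.

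*Psmb5* was at 22.95, 35.1 and 31.6 CPM in wildtype mice on HFD and *Psmb7* at 39.6, 52.7 and 48.7 CPM, both below every *Pax4* R192H mouse on that diet. The proteasome activator gene *Psme3*, which encodes PA28γ, had the smallest constitutive estimate: it was at 15.7, 15.6 and 15.9 CPM in wildtype and at 13.6, 13.1 and 14.2 CPM in *Pax4* R192H mice (log2 -0.21 ± 0.14 SE, adjusted p = 0.504 by edgeR). Without wildtype mouse 1 the constitutive median fell to 0.19. The comparison of diets in *Pax4* R192H mice and this one share the 3 *Pax4* R192H mice on HFD, so their values are not independent. Acinar markers were summed at 18750 to 29300 CPM in wildtype and 43310 to 114000 CPM in *Pax4* R192H mice on HFD, with 9 of 25 called higher. Duct markers, at 78.35 to 97.74 CPM in wildtype and 125 to 133 CPM in *Pax4* R192H mice, and islet endocrine markers, at 74820 to 102200 CPM and 108400 to 121700 CPM, did not overlap either, and none of them was called. With the mean level of the acinar markers as a covariate the constitutive median was 0.43 and 0 members were called. Coding genes under 1000 bases had a median of 0.31 here, and the 7 constitutive members of that length had 0.32. The 13 members of 1000 to under 1500 bases had 0.32 against 0.18, and the 17 of 1500 to under 3000 bases had 0.28 against 0.075. The part of these features in the estimates was not tested.

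**Figure D4:**
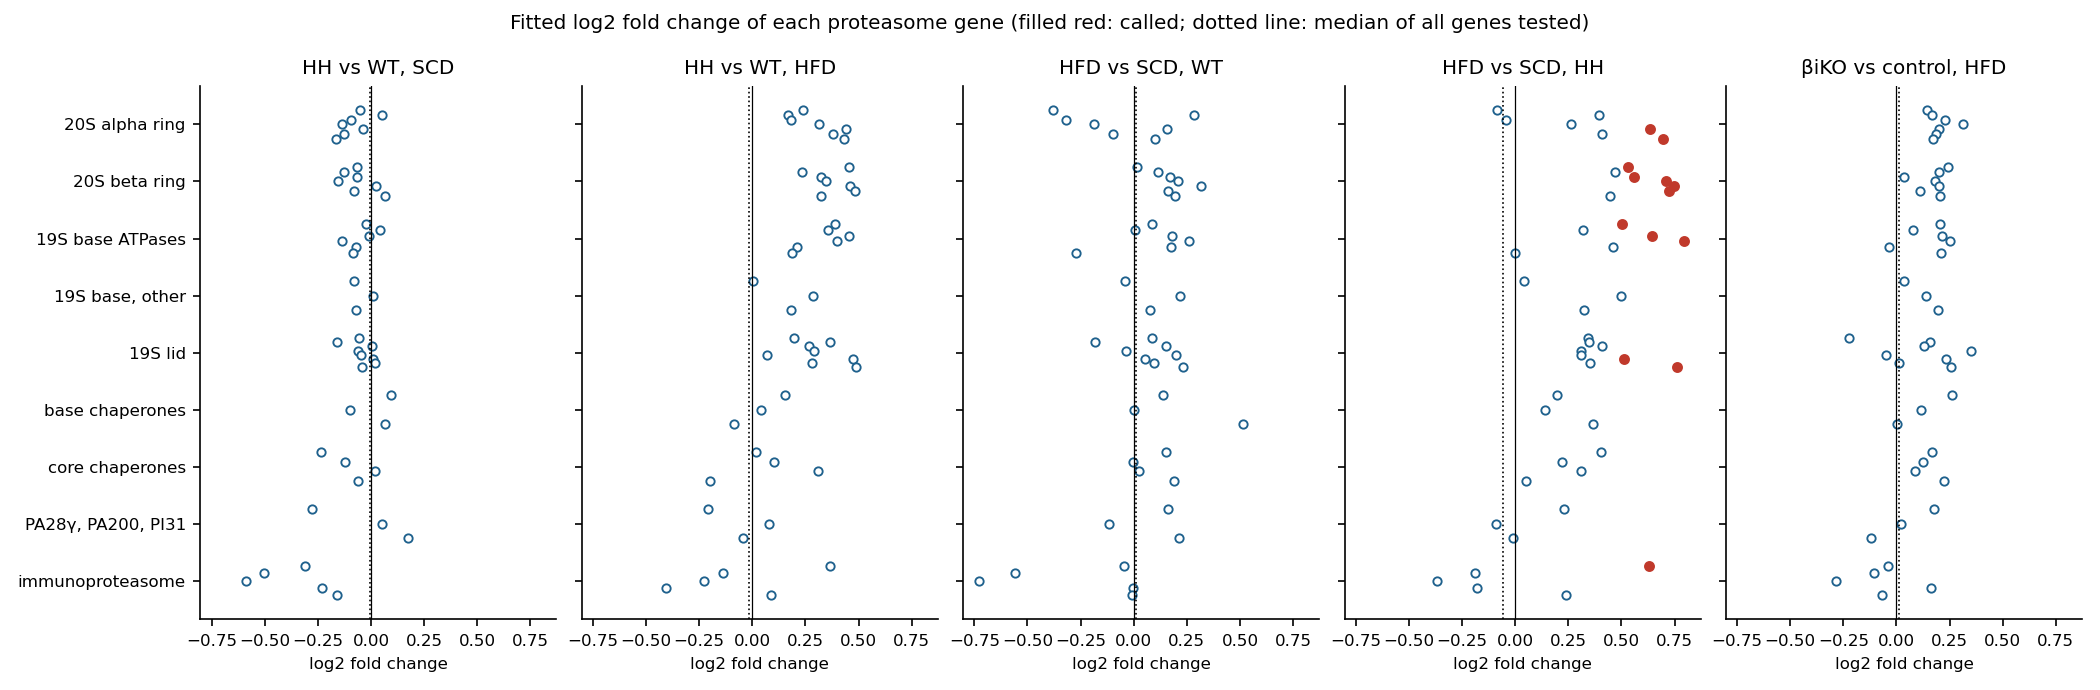
Fitted log2 fold change of each of the 46 tested proteasome genes in 5 comparisons, by subunit group, with called genes in filled red and a dotted line at the median of all genes tested. The 13 red points are all in the panel of HFD against SCD in *Pax4* R192H islets, and on HFD all 31 points of the 20S and 19S rows lie above 0 in *Pax4* R192H against wildtype islets.

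The immunoproteasome genes are described one by one, since their estimates differed in sign within most comparisons. *Psmb8* was at 9.74, 11.9 and 13.3 CPM in wildtype mice on SCD, 9.94, 7.05 and 7.63 CPM in *Pax4* R192H mice on SCD, 7.65, 9.18 and 6.98 CPM in wildtype mice on HFD, and 7.62, 6.92 and 7.09 CPM in *Pax4* R192H mice on HFD. *Psmb9* was at 6.64, 4.69 and 6.49 CPM, 4.37, 3.37 and 4.12 CPM, 3.15, 3.82 and 3.80 CPM, and 2.58, 3.74 and 2.90 CPM in the same order. The mean of both genes was highest in wildtype mice on SCD, where *Psmb9* was higher in each mouse than in any other mouse of the line and *Psmb8* overlapped with 1 *Pax4* R192H mouse on SCD. From SCD to HFD in wildtype islets the estimates were -0.56 ± 0.18 for *Psmb8* and -0.73 ± 0.21 for *Psmb9* (log2 ± SE, adjusted p = 0.162 and 0.139 by edgeR).

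*Psmb10* was at 9.40, 9.95 and 10.1 CPM in wildtype mice on SCD, 7.02, 7.61 and 9.20 CPM in *Pax4* R192H mice on SCD, 7.89, 10.8 and 9.87 CPM in wildtype mice on HFD, and 15.35, 10.03 and 11.38 CPM in *Pax4* R192H mice on HFD. It was called higher in *Pax4* R192H islets on HFD against SCD (1.55-fold, adjusted p = 0.032 by edgeR), unlike *Psmb8* and *Psmb9*, whose estimates were -0.19 and -0.37. With the acinar covariate the estimate of *Psmb10* was 0.029, and without HFD mouse 1, which had the highest level of both *Psmb10* and acinar markers, it was 0.44 (adjusted p = 0.138). The call was also lost without SCD mouse 1 (adjusted p = 0.0977), SCD mouse 2 (0.0851) or HFD mouse 3 (0.0596, edgeR).

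*Psme1* was at 15.44, 15.11 and 18.02 CPM in wildtype and at 11.9, 13.4 and 11.3 CPM in *Pax4* R192H mice on HFD, without overlap and 0.755-fold (log2 -0.41 ± 0.14 SE, adjusted p = 0.14 by edgeR). On SCD it was at 18.5, 15.7 and 14.5 CPM in wildtype and at 13.1, 14.1 and 14.2 CPM in *Pax4* R192H mice. Its partner *Psme2* lay between 23.5 and 32.2 CPM in all 12 mice of the line and had an estimate of 0.088 in *Pax4* R192H against wildtype on HFD. The 2 PA28 genes thus had estimates of opposite sign on HFD, and neither was called.

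Because an immune subunit takes the place of its constitutive partner, the ratio of their counts was taken within each mouse, where scaling to library size cancels. *Psmb8* to *Psmb5* had a log2 ratio of -1.72, -0.60 and -0.72 in wildtype mice on SCD and -1.44, -1.85 and -1.44 in *Pax4* R192H mice on SCD. On HFD it was -1.58, -1.94 and -2.18 in wildtype and -2.35, -2.64 and -2.54 in *Pax4* R192H mice. The geometric mean of the ratios was 0.268 in wildtype and 0.176 in *Pax4* R192H mice on HFD, a log2 difference of -0.61 with no overlap (exact two-sided permutation p = 0.1, the smallest that 3 against 3 mice allow).

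*Psmb9* to *Psmb6* had a log2 ratio of -3.27, -3.26 and -2.91 in wildtype and -3.54, -3.89 and -3.55 in *Pax4* R192H mice on SCD, and of -3.94, -4.11 and -4.03 in wildtype and -4.97, -4.50 and -4.81 in *Pax4* R192H mice on HFD. The 4 groups did not overlap, in the order wildtype SCD, *Pax4* R192H SCD, wildtype HFD and *Pax4* R192H HFD. The genotypes differed by -0.51 on SCD and -0.73 on HFD, and the diets by -0.88 in wildtype and -1.10 in *Pax4* R192H mice (exact permutation p = 0.1 for each). *Psmb10* to *Psmb7* did not follow this order: the mean log2 ratio was -2.30 ± 0.022 in wildtype and -2.28 ± 0.40 in *Pax4* R192H mice on HFD (SD, n = 3 each, exact permutation p = 0.9). This ratio was lower without overlap in *Pax4* R192H than in wildtype mice on SCD (-0.38), and on HFD than on SCD in wildtype mice (-0.24, exact permutation p = 0.1 for each). Between diets in *Pax4* R192H mice it differed by 0.16, with overlap (exact permutation p = 0.6). Over the 15 tests of 3 ratios in 5 comparisons the lowest adjusted p was 0.188, so none passed.

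**Figure D5:**
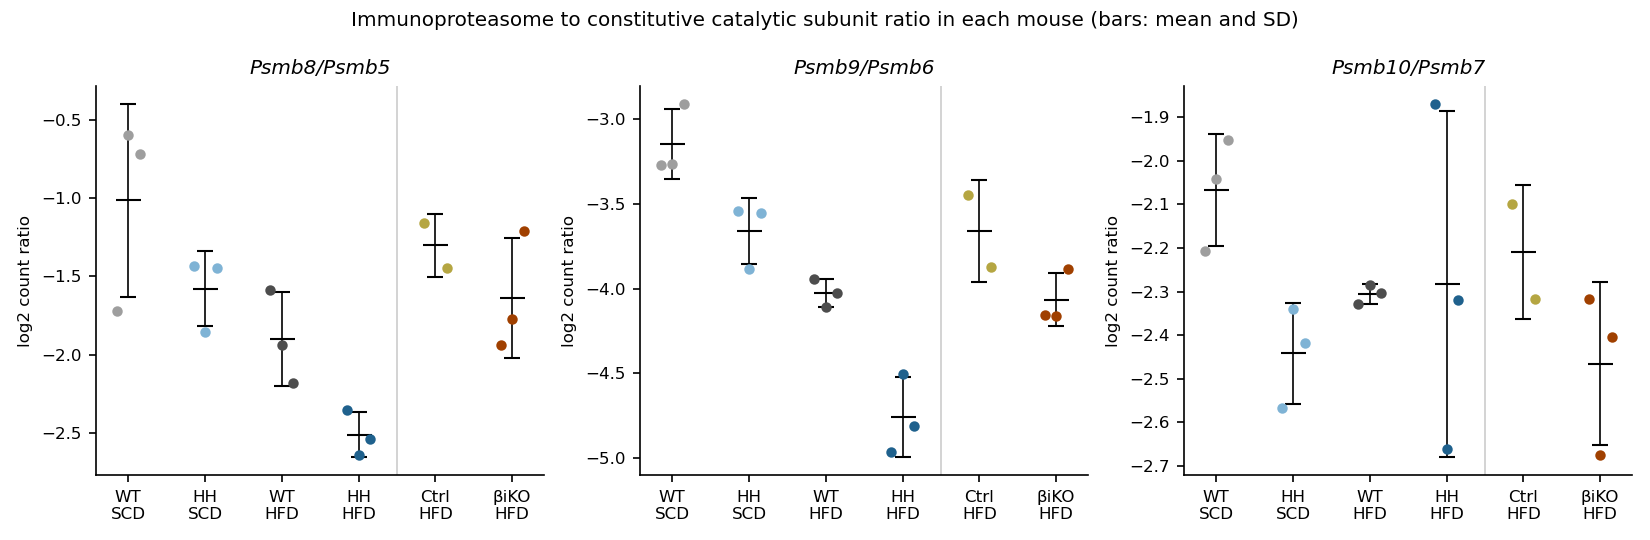
Log2 ratio of the counts of each immunoproteasome catalytic gene to those of its constitutive partner in each of the 17 mice, with the group mean and SD as bars and a grey line between the 2 mouse lines. *Psmb9/Psmb6* steps down over the 4 groups of the R192H line from -3.15 to -4.76 without overlap, whereas *Psmb10/Psmb7* does not.

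Immune cell markers moved with part of this pattern. Their mean was 2.01 to 3.02 log2 CPM in wildtype mice on SCD, above the 1.21 to 1.45 of *Pax4* R192H mice on SCD, the 1.26 to 1.52 of wildtype mice on HFD and the 0.52 to 1.87 of *Pax4* R192H mice on HFD. Summed over the 14 markers, of which 10 were tested, the levels were 129 to 209, 80.8 to 99.0, 82.9 to 96.5 and 71.6 to 122 CPM in the same order. In each of the last 3 groups 2 markers were at 0 in every mouse, the T cell marker *Cd3e* among them, and no marker was at 0 throughout wildtype SCD mice. *Ptprc* and *Lyz2*, a pan-leukocyte and a myeloid marker, were called lower in wildtype islets on HFD against SCD. Between the genotypes on HFD no immune marker was called. Transcript length is not cancelled in a ratio of 2 genes. The principal transcripts of *Psmb5* and *Psmb6* have 899 and 798 bases, and those of *Psmb8* and *Psmb9* 1628 and 1352. Between genotypes on HFD the median of all coding genes was 0.31 under 1000 bases. It was 0.18 from 1000 to under 1500 and 0.075 from 1500 to under 3000 bases. *Psmb10* and *Psmb7*, with 1311 and 1160 bases, fall in the same class. The part of immune cells and of transcript length in the ratios was not tested.

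*Pax4* βiKO islets were then compared with control islets on HFD. None of 46 members was called, against 0.0893% of all genes (edgeR), and DESeq2 called 0. The constitutive median was 0.17 against 0.011 over all genes, with 37 of 41 above 0 and 12 higher at an unadjusted p below 0.05, against 1256 of 20167 genes. Members at that p numbered 6 without βiKO mouse 1, 8 without βiKO mouse 2 and 12 without βiKO mouse 3. With 1 control left out the constitutive median was 0.097 (mouse 1) or 0.23 (mouse 2). In 24 of 41 the 3 βiKO mice lay above both controls, against 15.9% of all genes. All 14 core genes were above 0, between 0.037 and 0.31.

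*Psmd14*, the lid deubiquitinase, had the largest estimate of the constitutive genes: it was at 39.3 and 46.2 CPM in controls and at 55.3, 50.8 and 57.5 CPM in βiKO mice, 1.27-fold higher (log2 0.35 ± 0.10 SE, adjusted p = 0.269 by edgeR). *Psmd11*, another lid subunit, had the smallest of them: it was at 41.7 and 39.4 CPM in controls and at 38.0, 35.9 and 30.2 CPM in βiKO mice (log2 -0.22 ± 0.11 SE, adjusted p = 0.449). Neither gene overlapped between the groups. *Psmb5* was at 46.6 and 50.7 CPM in controls and at 60.4, 53.0 and 54.6 CPM in βiKO mice, *Psmb6* at 102.9 and 119.0 CPM against 126.5, 109.2 and 123.5 CPM, and *Psmb7* at 82.6 and 87.9 CPM against 102.2, 95.3 and 97.0 CPM.

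*Psmb8* was at 20.9 and 18.6 CPM in controls and at 15.8, 15.5 and 23.6 CPM in βiKO mice, *Psmb9* at 9.44 and 8.12 CPM against 7.11, 6.11 and 8.37 CPM, and *Psmb10* at 19.2 and 17.6 CPM against 20.5, 14.9 and 18.3 CPM. *Psme1* was at 26.9 and 27.7 CPM in controls and at 23.4, 26.0 and 42.0 CPM in βiKO mice, and *Psme2* at 54.0 and 58.3 CPM against 48.9, 53.5 and 58.5 CPM. The groups overlapped in all 5 genes, and βiKO mouse 3, the highest in *Psmb8*, *Psmb9*, *Psme1* and *Psme2* among the knockouts, also had the highest mean of immune markers, 3.88 log2 CPM against 2.202 to 2.79 in the other 4 mice of the line. The log2 ratio of *Psmb9* to *Psmb6* was -3.45 and -3.87 in controls and -4.15, -4.16 and -3.88 in βiKO mice. The groups did not overlap, but their nearest mice were at -3.874 and -3.883 (exact two-sided permutation p = 0.2). The other 2 ratios overlapped between the groups (exact permutation p = 0.3 for each). *Psmb8* to *Psmb5* had a mean of -1.30 in controls and -1.64 in βiKO mice, and *Psmb10* to *Psmb7* of -2.21 and -2.465. Acinar markers were high in 1 control and 1 knockout, at 10.3 and 10.1 mean log2 CPM against 7.75 to 8.08 in the others. The summed levels of endothelial markers (238.4 to 241 CPM in controls and 260 to 301 CPM in βiKO mice), duct markers (203 to 207 and 255 to 317 CPM) and islet endocrine markers (132400 to 147500 and 148000 to 155700 CPM) were higher in βiKO mice without overlap, and none of these genes was called. Their part in the estimates was not tested. Without that control, mouse 1, the constitutive median was 0.097. Coding genes under 1000 bases had a median of 0.17 in this comparison, as did the 7 constitutive members of that length. The members of 1000 to under 1500 bases had 0.20 against 0.14 (13 genes), those of 1500 to under 3000 bases 0.17 against 0.080 (17 genes), and those of 3000 bases or more 0.030 against -0.044 (4 genes).

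Other genes of the ubiquitin-proteasome pathway were taken from lists of regulators, ubiquitin genes, cofactors and antigen processing genes. *Nfe2l1*, the transcription factor that raises proteasome gene expression when proteasome activity falls, was at 101.2, 94.9 and 93.3 CPM in wildtype and 92.4, 101.4 and 83.9 CPM in *Pax4* R192H mice on SCD, and at 103, 87.5 and 99.5 CPM in wildtype and 82.5, 78.0 and 81.8 CPM in *Pax4* R192H mice on HFD. It was lower without overlap in *Pax4* R192H islets on HFD than in either the wildtype islets on HFD or the *Pax4* R192H islets on SCD, and was called in neither comparison (log2 -0.26 and -0.20, adjusted p = 0.269 and 0.244 by edgeR). In the βiKO line it was at 151.8 and 143.6 CPM in controls and at 128.2, 132.7 and 137.1 CPM in knockouts (adjusted p = 0.448). *Ngly1*, which encodes the glycanase that helps to activate this factor, had the opposite sign: it was at 29.35, 36.5 and 35.8 CPM in wildtype and at 48.7, 49.9 and 45.6 CPM in *Pax4* R192H mice on HFD (log2 0.50, adjusted p = 0.0538 by edgeR). On HFD against SCD in *Pax4* R192H islets *Ngly1* and *Vcp*, an unfolding ATPase that extracts proteins from membranes, passed the adjusted p (0.0316 and 0.0479) but not the fold threshold. None of the 5 regulators of proteasome genes was called in any of the 6 comparisons.

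Of 6 ubiquitin and activating enzyme genes, 1 was called in *Pax4* R192H against wildtype islets on HFD (16.7%, against 2.28% of all genes) and 3 on HFD against SCD in *Pax4* R192H islets (50%, against 15.7%). Of the 3, the polyubiquitin gene *Ubb* was called higher (1.5-fold, adjusted p = 0.0244 by edgeR) and *Uba6*, an activating enzyme, lower (0.695-fold, adjusted p = 0.0149). Of 16 further proteasome parts and cofactors, *Uchl5*, a deubiquitinase of the 19S particle, was called higher there (1.43-fold, adjusted p = 0.0444). Of 10 genes of class I antigen processing, *Nlrc5*, the transcriptional activator of these genes, was called lower there (0.404-fold, adjusted p = 0.0406, from 1.89 to 0.758 mean CPM). None of these genes was called in the βiKO line.

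Overlapping genes limit some of these values. Exons of 11 of the 48 proteasome genes overlap a gene on the opposite strand, and the strand setting of the counting is not given in the sources used here. Among the genes described above, *Psmc3* overlaps *Slc39a13*, *Psmb9* overlaps *Tap1*, *Psmb7* overlaps *Nek6*, *Psme1* overlaps *Emc9*, *Psmb8* overlaps *Gm20496*, *Psma5* overlaps *1700010K24Rik* and *Psmd9* overlaps *Gm26745*. The counts of 16 of the 48 genes were not whole numbers in at least 1 mouse, by more than 0.001. Among them were *Psma5*, *Psmb3*, *Psmb4*, *Psmb5*, *Psmb7* and *Psmb9*. Whether their reads were shared with other genes or only split by the estimate was not tested.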

How the data were processed

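Islet RNA of 17 mice was sequenced on a NovaSeq as paired reads from TruSeq stranded total RNA libraries. The values deposited by the authors are expected counts per gene, made with STAR (2.7.1), RSEM (1.3.3) and tximport against mm10, and not scaled for depth. Here they were rounded to whole numbers. Gene symbols came from GENCODE M21 (GRCm38), which matched 65.8% and 66.7% of the identifiers in the 2 tables. Each table was fitted with edgeR (4.0.16, R 4.3.3) in 1 quasi-likelihood model with a coefficient per group, after TMM scaling and filterByExpr at a minimum count of 10. A gene was called when its p-value, adjusted by Benjamini and Hochberg, was below 0.05 and its log2 fold change exceeded 0.5 in size. Mean log2 CPM used a prior count of 2, and SE is the log2 fold change over the root of its F statistic. The tests were checked on simulated counts.

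Values in every mouse are given for the 10 called members of smallest p, the immunoproteasome genes and their 3 constitutive partners, and the constitutive genes of largest and smallest estimate between genotypes on HFD. The members and gene lists were chosen with earlier results of these data known. Alternatives were RLE and upper quartile scaling, no or a stricter filter, DESeq2 (1.42.0), the replicate number as a block, models of 2 groups, an acinar marker covariate, leaving out the 2 largest genes, no fold threshold, 0.5 added to counts in ratios, and leaving out each mouse. A total of 3 counts is 7.03e-06 to 1.24e-05% of a library. This and permutation tests cover the spread between these mice and counting error only. Replicates of each group differed by more than sampling noise. Results on a few items are not reported here.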

Additional observations from a re-analysis of the deposited data

How the results depend on the processing

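The count of members called was 0 under every alternative run in 5 of the 6 comparisons, and between 10 and 15 for HFD against SCD in *Pax4* R192H islets, except 0 with the acinar marker covariate and 7 to 15 when 1 mouse was left out. With the acinar covariate the constitutive median was 0.43 between genotypes on HFD, 0.47 in the interaction and 0.56 between diets in *Pax4* R192H islets, and the immunoproteasome median was 0.16 in the interaction and 0.029 between diets in *Pax4* R192H islets; the cause was not tested. The estimates that changed sign with it were *Psmb10* between genotypes on HFD (-0.11) and in βiKO islets (0.011), *Psme1* in the interaction (0.020), between diets in wildtype (0.028) and in *Pax4* R192H islets (0.047), and *Psme2* between diets in wildtype islets (0.026). Without the 2 largest genes *Psme1* was at 0.0013 between diets in wildtype islets. None of these estimates was called. Over all genes, 437 were called between genotypes on HFD, against 147 with the replicate block, 1279 with no filter on low counts, 919 by DESeq2 and 0 with the acinar covariate. Between genotypes on SCD 0 were called, against 261 with no filter and 23 by DESeq2, in the interaction 25 against 708 and 310, between diets in wildtype 71 against 924 and 540, and in βiKO islets 18 against 697 and 250. With the replicate block and the acinar covariate the interaction had 0 and 0, diets in wildtype 22 and 39, diets in *Pax4* R192H islets 2347 and 20 against 2996, and βiKO islets 88 and 13. The model of the 2 groups called 1 gene between diets in wildtype islets. With 1 mouse left out, the calls over all genes ran from 93 to 498 between genotypes on HFD, from 0 to 101 in the interaction, from 5 to 125 between diets in wildtype, from 1706 to 2248 between diets in *Pax4* R192H and from 2 to 28 in βiKO islets.

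Leaving out 1 mouse gave constitutive medians of 0.097 to 0.23 in βiKO islets. The immunoproteasome median ran from -0.18 to -0.020 between genotypes on HFD, from -0.42 to -0.22 on SCD, from 0.24 to 0.46 in the interaction and from -0.16 to 0.0046 between diets in *Pax4* R192H islets. Single genes that crossed 0 were *Psmb5* (-0.14 to 0.29), *Psmb6* (-0.18 to 0.089) and *Psmb7* (-0.038 to 0.14) between genotypes on SCD, *Psmb10* (-0.14 to 0.076), *Psme1* (-0.086 to 0.10) and *Psme2* (-0.075 to 0.094) between diets in wildtype, *Psmb8* (-0.25 to 0.0046) between diets in *Pax4* R192H, and *Psmb10* (-0.15 to 0.070) and *Psme1* (-0.14 to 0.32) in βiKO islets. Where 1 control remained, it was assumed to vary like the other mice.

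The replicate numbers did not pair the mice: deviations of same-numbered mice correlated between -0.30 and 0.19 in the R192H line and at 0.038 and 0.073 in the βiKO line. With the number as a replicate block 10 members were called between diets in *Pax4* R192H islets, without *Psmb1*, *Psmb10* (adjusted p = 0.0595 by edgeR) and *Psmc1*, and 0 in each other comparison, and the estimate of *Psme1* in βiKO islets was -0.14. The 15 pair ratios moved by less than the spread between mice under each alternative. *Psma8* and *Psmb11* had counts too low to be tested, and whether this reflects depth or absence of expression was not tested.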
